A study of Mus musculus with 21 samples.

Results

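The DNase I hypersensitive sites (DHS) described here were called in the all-lymphoid progenitor (ALP) and in the ILC precursor (ILCP) of mouse bone marrow, but not in the early innate lymphoid progenitor (EILP) that stands between them. They were found by merging the peaks of the ALP, EILP and ILCP lists on chromosomes 1 to 19 and X wherever peaks shared at least 1 bp, and by keeping the merged regions that held an ALP peak and an ILCP peak and no EILP peak. This gave 4180 of 102313 regions, or 4.09%, the smallest of the 7 possible patterns. The regions were thus chosen by the DHS calls of all 3 stages, and their number, heights and fold enrichments are descriptions that carry no test.

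Innate lymphoid cells (ILCs) are lymphocytes that act without rearranged antigen receptors. They develop in the bone marrow from ALP, which can still give B and T cells, through EILP to ILCP, which is largely restricted to ILC fates. DHS mark DNA that is free of nucleosomes, mostly promoters, enhancers and insulators. TCF1, an HMG-box transcription factor encoded by Tcf7, is first strongly expressed in EILP and is required for ILC development.

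The series held 21 libraries from C57BL/6 mice. DNase-seq was made with 3 libraries a stage, each from 300 sorted cells and with 0.3 units of DNase I acting for 5 minutes. All gates were Lin- Kit+ and 2B4+. ALP were further a4b7-, Flt3high and IL-7Ra+, whereas EILP were a4b7+ Tcf7+ and Thy1-, and ILCP were a4b7+ Tcf7+ with Thy1+ and IL-7Ra+. Tcf7+ was read from a reporter allele, and the genotype label was Tcf7EGFP/+ for ALP and ILCP but Tcf7EGFPnull/+ for EILP, although the EILP source label and the names of all 3 pooled files read WT. If the genotype labels hold, the absence of a peak at EILP and the null allele cannot be told apart. TCF1 binding was measured in EILP of the same Tcf7EGFPnull/+ label by CUT&RUN, which cuts out antibody-bound DNA with a tethered nuclease, with 6 TCF1 and 4 IgG libraries of 500 cells. Some are technical repeats, and the libraries carry 4 library numbers for TCF1 and 3 for IgG. The labels of 2 more CUT&RUN libraries name TCF1 in one field and the IgG track in another, and they were put in no group, although the control file for the TCF1 calls names their library number, so that control is not known to be IgG alone, and the effect on the TCF1 calls was not tested.

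Each stage and TCF1 had 1 deposited peak list from pooled libraries, which leaves no error between replicates for any value. The lists rest on 12420429 tags (ALP), 11236009 (EILP), 12681410 (ILCP) and 2418839 (TCF1). On chromosomes 1 to 19 and X they held 66449, 70040, 71916 and 6679 peaks. Shares are given with 95% Wilson intervals, which cover the counting of regions only. The lists hold no expression values, so the labelled cell types were not checked by their marker genes. Positions are on build mm9, and since neither genes nor sequence of that build were used here, each region is named by its coordinates.

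The regions were weak sites in both lists that held them. Peak height, counted in tags over the summit, had a median of 10 in ALP (quartiles 8 and 12) and of 10 in ILCP (quartiles 8 and 13), beside a median of 13 over all peaks in each list. The authors' fold enrichment, the height over the local background with 1 added to each, had a median of 5.42 in ALP, where all peaks had 6.95, and of 5.62 in ILCP, where all peaks had 6.91. Regions open in all 3 stages had median heights of 17 in ALP and 18 in ILCP. Regions found in a single stage were weaker still. ALP-only regions had a median height of 9 and fold of 5.08, and ILCP-only regions 9 and 5.23. Regions open in ALP and EILP had a median height of 12 in ALP (fold 6.02) and 11 in EILP. Those open in EILP and ILCP had 10 in EILP and 12 in ILCP (fold 6.55). The EILP list also had a median of 13. A median height below that of the whole list was therefore not particular to the 4180 regions. Theirs was lower in ALP than that of ALP and EILP regions, and lower in ILCP than that of EILP and ILCP regions. It was above those of the ALP-only and ILCP-only regions. Both heights were above their list medians in 340 of the 4180 regions (8.13%), and both were at or below them in 2790 (66.7%). The heights reached 35 tags in ALP and 38 in ILCP. A lower height in a pool of cells can come from fewer cells with the site open or from less cutting in each cell, and these cannot be told apart.

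**Figure D1:**
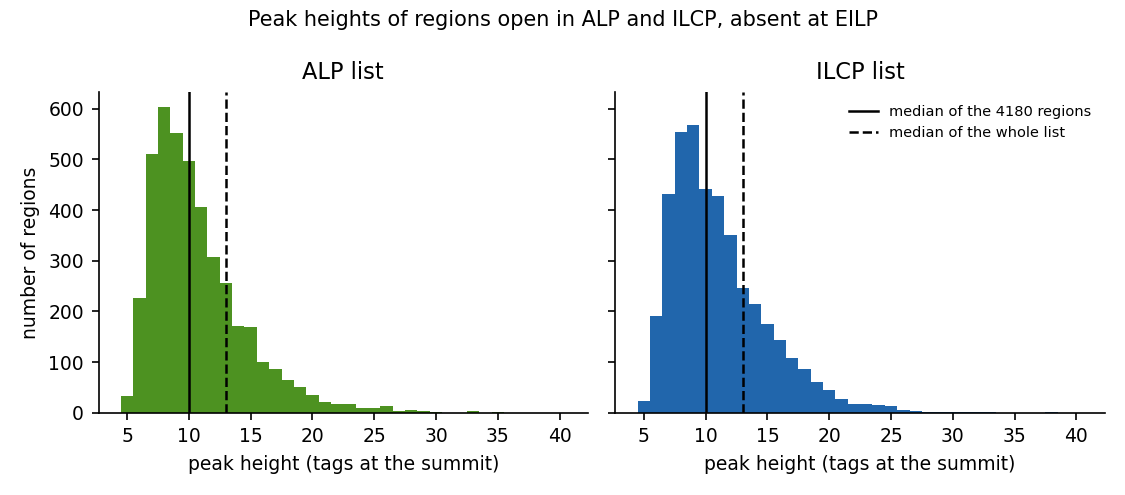
Number of the 4180 regions (vertical axis) at each peak height in tags (horizontal axis) in the ALP list (left) and the ILCP list (right), with the median of these regions as a solid line and that of all peaks of the list as a dashed line. The medians were 10 tags for these regions and 13 for either whole list, and most regions lie to the left of the dashed line.

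The ALP and ILCP peaks of a region lay nearly on top of each other. The rule joins only overlapping peaks, so short distances follow in part from the choice of regions and carry no test. The ALP and ILCP summits of a region lay a median of 24 bp apart (quartiles 10 and 53), beside 20 bp in regions open in all 3 stages. In 3060 regions (73.2%) the summits were within 50 bp of each other, and in 311 (7.44%) they were more than 100 bp apart. The bases covered by an ALP and an ILCP peak alike had a median of 118, and they numbered under 50 in 166 regions (3.97%). The regions were 193 bp wide at the median (quartiles 167 and 235), and 27 of them held more than 1 peak of a list. The widest, chr12:113832194-113832979, spanned 786 bp and had a height of 18 tags in ALP and 7 in ILCP.

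How often a site open in ALP and ILCP lacked an EILP peak depended steeply on its height. Over all heights the share was 4180 of 44031 regions, or 9.49% (9.22 to 9.77). The rule fixes this 9.49%, and its splits below describe the same calls and carry no test. When regions were ordered by the lower of their ALP and ILCP heights, the share was 32.8% (30.4 to 35.3) up to 6 tags, 16.8% (15.9 to 17.7) at 9 to 10 tags and 5.50% (4.97 to 6.09) at 13 to 15 tags. It was 0.191% (0.110 to 0.334) at 21 to 30 tags, which is 12 of 6269 regions. Above 30 tags there were 0 of 5353 regions, with an upper bound of 0.0717%.

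The same share was counted with each of the other stages as the missing one. Of regions open in ALP and EILP, 9747 of 49598 lacked an ILCP peak, or 19.7% (19.3 to 20.0). Of regions open in EILP and ILCP, 9480 of 49331 lacked an ALP peak, or 19.2% (18.9 to 19.6). The EILP share lay below the other two in every height class. At 9 to 10 tags the shares were 16.8% without EILP, 30.9% without ILCP and 32.1% without ALP, and at 16 to 20 tags they were 2.09%, 9.83% and 8.01%. Equal heights in lists of different depth are not equal levels of cutting, and the EILP file had the fewest tags of the 3. The lists also differ in length, and with each cut to its best 66449 peaks by q the EILP share was 9.88%. The shares without ILCP and without ALP were not counted with cut lists, so no comparison between stages was made at equal length.

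**Figure D2:**
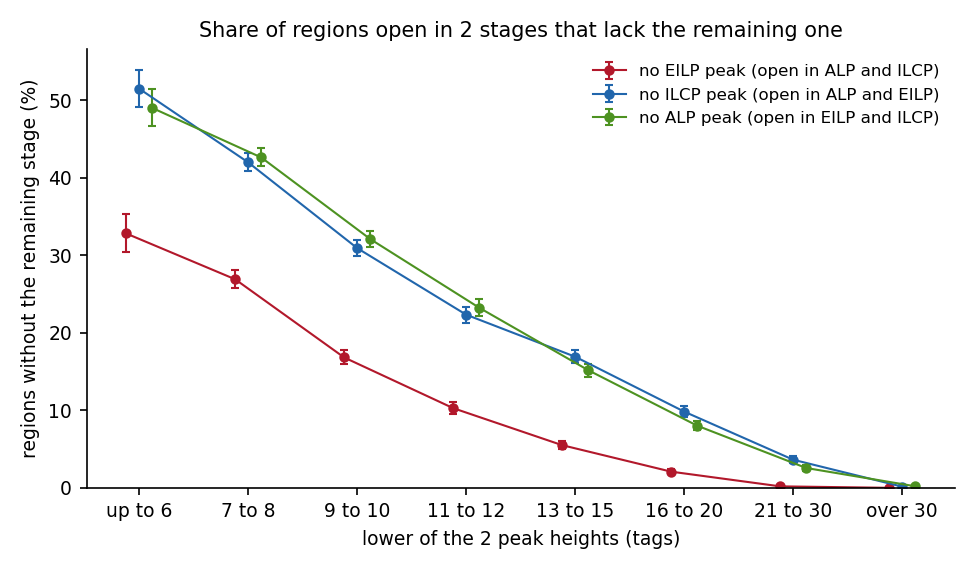
Percent of regions open in 2 stages that lack a peak of the remaining stage (vertical axis), by the lower of the 2 peak heights in tags (horizontal axis), with 95% Wilson intervals as bars and 1 line per missing stage. All lines fall with height, and the line for a missing EILP peak lies below the other two, at 9.49% overall against 19.7% without ILCP and 19.2% without ALP.

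The absence of an EILP peak means that no call was made, not that no cutting took place, since EILP signal outside peaks was not analysed. The lowest height in the EILP list was 5 tags and the narrowest peak 100 bp, the length of an extended fragment. Of EILP peaks of at least 10 tags, 3.99% were 120 bp or narrower, and of those of at least 15 tags 0.550%. The values at the border of the rule were as follows. The member with the closest EILP peak, chr1:155450044-155450243, touched it with 0 bases between. Its heights were 7 in ALP and 9 in ILCP, and that EILP peak had 10 tags. The next, chr19:43605084-43605208, lay 3 bases from an EILP peak of 19 tags and had heights of 9 and 12. Just outside the rule was chr6:97437696-97438093, open in all 3 stages with 15 tags in ALP, 5 in EILP and 6 in ILCP. A second such region, chr17:56390643-56390817, had 14, 8 and 11 tags in that order. Their −log10 q at EILP were 1.31 and 1.34, the lowest of all regions open in all 3 stages.

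The 10 most enriched regions, by the lower of their ALP and ILCP fold enrichments, were clear peaks at both ends of the path. The first, chr11:83552846-83553051, had 20 tags in ALP (fold 11.8) and 21 in ILCP (fold 12.1), with summits 1 bp apart. The second, chr16:94706798-94707080, had 25 tags in ALP (fold 14.1) and 20 in ILCP (fold 11.7), with summits 4 bp apart. The third, chr10:61738063-61738265, had 18 tags in ALP and 24 in ILCP. These values chose the regions and are given as a description.

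The region chr14:47878713-47878942 had the greatest ILCP height of the 10, with 30 tags there (fold 14.8) and 20 in ALP (fold 10.8), and its summits were 5 bp apart. In chr4:47977556-47977805 the heights were 21 and 17 and the summits 57 bp apart, the widest separation among them. The region chr11:30699587-30699806 had 19 and 18 tags and chr16:38536880-38537111 had 17 in each list. The last 3 in order of fold were chr6:127895873-127896084 at 16 and 18 tags, chr10:59529364-59529575 at 16 in each list and chr4:47033550-47033746 at 17 and 16. None of the 10 overlapped a TCF1 peak, where 1.41% of the 4180 regions and 4.16% of all regions did. Their nearest TCF1 peak was 35786 bp away or farther, and the median distance was 82557 bp for the 4180 and 66161 bp for all regions. The nearest EILP peak lay between 1781 bp (the first region) and 64855 bp (chr4:47977556-47977805) away. Local background is the tags that the peak caller took as the level around a peak. At these sites it lay between 0.664 and 0.94 in ALP and between 0.678 and 1.1 in ILCP. The medians over the 4180 regions were 0.770 and 0.790, and the median of either whole list was 1. The fold that chose the 10 divides by this background, so the choice itself favours low values.

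Both heights were at least 15 tags in 249 regions (5.96%), against 46.4% of all regions open in ALP and ILCP, and these 249 include the 10 just named. Their median local background was 2.04 in ALP and 2.05 in ILCP, beside 0.75 and 0.77 in the other 3931 regions. An EILP peak lay within 1000 bp of 103 of them (41.4%), beside 20.7% of the others, and the median distance was 1490 bp against 5569 bp. These distances were not counted for tall ALP-only or ILCP-only regions, so the nearness is not shown to be particular to the 249. Their summits coincided more closely, with a median of 17 bp between ALP and ILCP against 25 bp. A higher background raises the height that a call needs, and its part in the missing EILP calls was not tested.

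Over all 4180, the regions lay about as far from EILP peaks as all regions without one, and between the ALP-only and the ILCP-only regions. An EILP peak lay within 1000 bp of 916 (21.9%, 20.7 to 23.2), where 21.3% of all 33364 regions without an EILP peak had one. The shares were 22.7% (22.0 to 23.5) for regions open in ALP only and 20.2% (19.6 to 20.8) for those open in ILCP only. The median distance was 5148 bp, between the 4548 bp of ALP-only and the 5992 bp of ILCP-only regions. Within 100 bp of the region there was an EILP peak in 128 cases (3.06%).

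TCF1 peaks, from an assay that the rule did not use, were rare in these regions. A TCF1 peak overlapped 59 of the 4180, or 1.41% (1.10 to 1.82), where 4.16% of all regions had one. All regions were wider, at a median of 211 bp against 193 bp, and the shares by width and height are given below. The share was 0.750% (0.608 to 0.924) in regions open in ALP only, 1.04% (0.861 to 1.26) in EILP only and 1.34% (1.18 to 1.52) in ILCP only. Regions with an EILP peak and one other stage differed from each other, with 1.83% (1.58 to 2.11) for ALP and EILP and 5.05% (4.63 to 5.51) for EILP and ILCP. Regions open in all 3 stages had 7.82% (7.56 to 8.09). The interval of the 4180 regions overlapped those of the EILP-only, ILCP-only and ALP and EILP regions and lay above that of the ALP-only regions. ALP-only regions were narrower, at a median of 145 bp, and within every width class their interval overlapped that of the 4180. At 201 to 300 bp the ALP-only share was 1.21% (0.802 to 1.83), beside 1.90% (1.31 to 2.75). With 1 pooled list per stage, no test between mice or libraries could be made.

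The TCF1 share was higher in wider regions in each of the 4 patterns with 2 or 3 stages. Among regions 201 to 300 bp wide, 1.90% (1.31 to 2.75) of those without an EILP peak had a TCF1 peak, against 1.97% (1.60 to 2.41) of ALP and EILP regions, 5.47% (4.78 to 6.25) of EILP and ILCP regions and 3.85% (3.55 to 4.16) of regions open throughout. Above 300 bp the shares were 2.17% (1.15 to 4.07) and 13.0% (12.6 to 13.5) for the first and the last of these. At a lower height of up to 8 tags the TCF1 share was 0.839%, beside 1.21% of all regions, and at 9 to 12 tags 1.52% beside 2.46%. At 13 to 20 tags the share was 3.43% (2.15 to 5.42), beside 5.64% of all regions. In that class it was 2.90% (2.25 to 3.73) for ALP and EILP, 9.32% (8.02 to 10.8) for EILP and ILCP and 7.18% (6.73 to 7.66) for all 3 stages. In each of these classes the interval of the regions without an EILP peak overlapped that of the ALP and EILP regions. Among the 249 tall regions 11 had a TCF1 peak (4.42%, 2.48 to 7.74), beside 1.22% of the other 3931. Of all regions, 5.64% had one at a lower height of 13 to 20 tags and 15.6% above 20 tags.

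**Figure D3:**
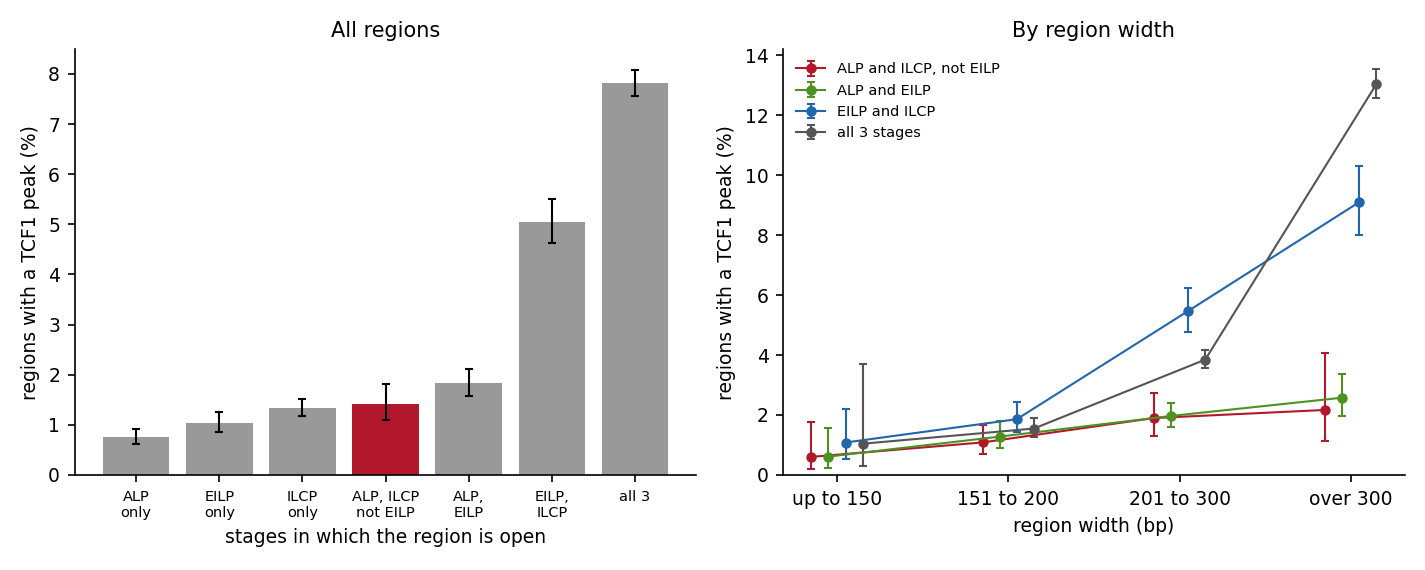
Percent of regions that overlap a TCF1 peak by at least 1 bp (vertical axes), by the stages in which the region is open (left, bars) and by region width in bp for 4 of the patterns (right, points), with 95% Wilson intervals. Regions open in ALP and ILCP but not EILP, in red, had 1.41% overall and lie with the ALP and EILP regions in each width class.

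The TCF1 peaks in these regions were as small as most in their list. Their median height was 5 tags, with a range of 3 to 9, and the median of all 6679 TCF1 peaks was 5. Fold enrichment had a median of 5.11 against 5.15 over the list. In 48 of the 59 regions the TCF1 summit lay inside the region, and it was a median of 51 bp from the ALP summit and 53 bp from the ILCP summit. In 1 case the TCF1 peak also overlapped a separate EILP peak beside the region. The other 58 TCF1 peaks lay on sites that were open in ALP and ILCP and had no DHS call in EILP, the cell in which TCF1 was measured.

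The 5 regions with the most enriched TCF1 peaks were mixed in their openness. The strongest, chr2:32348855-32349276, had a TCF1 peak of 9 tags (fold 8.58) whose summit was 5 bp from the ALP summit. Its DHS heights were 19 tags in ALP and 38 in ILCP, the highest that any of the 4180 reached in ILCP, on a local background of 2.88 and 4.36. In chr14:69966248-69966412 the TCF1 peak had 7 tags (fold 7.08) and lay 3 bp from the ILCP summit, and the DHS heights were 10 in each list. In each of them the other stage's summit was farther from the TCF1 summit, at 64 bp for ILCP in the first and 41 bp for ALP in the second.

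The region chr4:140236692-140236936 had 16 tags in ALP and 5 in ILCP, the fewest that any ILCP peak had, with a TCF1 peak of 7 tags (fold 7.01). In chr11:102976674-102976874 the heights were 11 and 12 on backgrounds of 3 and 3.31, which makes the lowest ALP fold enrichment of all 4180 regions, 3, and its TCF1 peak had 7 tags (fold 6.86). In chr1:137177351-137177548 the heights were 15 and 28 and the TCF1 peak had 6 tags (fold 6.20), 8 bp from the ALP summit. An EILP peak lay between 351 and 2635 bp from each of the 5.

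The regions were spread over the whole genome. Per chromosome, the share of regions open in ALP and ILCP that lacked an EILP peak ran from 7.62% (6.55 to 8.85) on chromosome 17 to 12.9% (10.7 to 15.3) on chromosome X, with a median of 9.47%, beside the 9.49% of all. The interval held the overall value on 16 of the 20 chromosomes. On X the lower height had a median of 12 tags against 14 on the autosomes. Within height classes the X shares were 31.7% (25.5 to 38.7) up to 8 tags, 15.1% (11.4 to 19.9) at 9 to 12 and 1.63% (0.751 to 3.52) above 12. The autosomal shares were 27.9%, 13.8% and 2.04%, each inside the X interval.

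**Figure D4:**
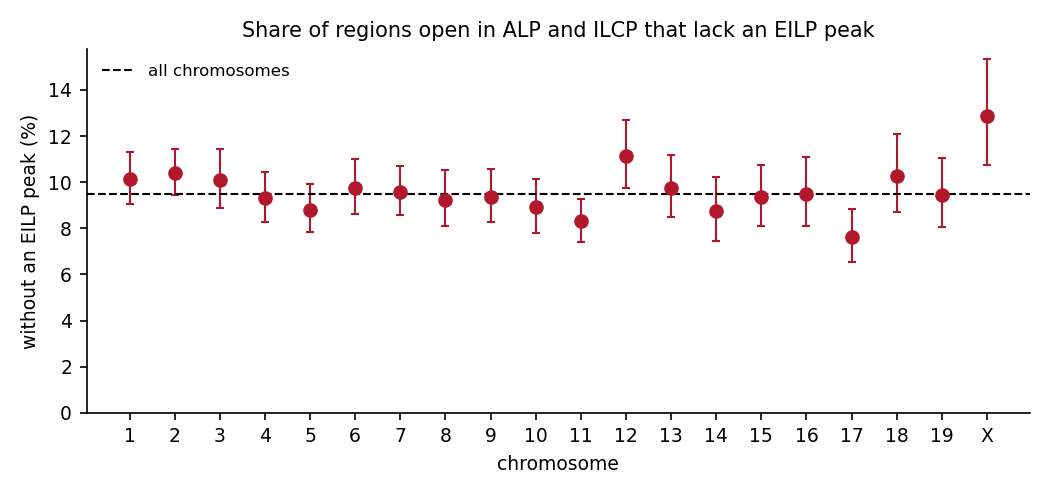
Percent of regions open in ALP and ILCP that lack an EILP peak (vertical axis) on each chromosome (horizontal axis), with 95% Wilson intervals as bars and the value over all chromosomes as a dashed line. Chromosome X is highest at 12.9% and chromosome 17 lowest at 7.62%, and 16 of the 20 intervals hold the overall 9.49%.

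Of the 2345 windows of 1 Mb that held any DHS, 1635 held at least 1 of the regions, 570 held exactly 1 and 217 held 5 or more. The most, 12 of 105 regions, were in the window of chromosome 7 from 106000001. The next 4 windows followed with 11 each, on chromosome 1 from 173000001, on chromosome 11 from 69000001 and from 97000001, and on chromosome 12 from 116000001. The last of these was the poorest in DHS, with 73 regions in all, and 11 of its 36 regions open in ALP and ILCP had no EILP peak (30.6%). Among windows with 20 or more regions the highest share was on chromosome 7 from 143000001, where 6 of 27 regions had the pattern, and 6 of the 9 open in ALP and ILCP lacked an EILP peak. The next were on chromosome 5 from 96000001 (5 of 24) and, with 4 of 20 each, on chromosome 12 from 79000001 and chromosome 2 from 20000001. These windows were picked as extremes of 1578, and their counts are descriptions.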

How the data were processed

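DNase-seq of ALP, EILP and ILCP and TCF1 CUT&RUN of EILP were analysed as 4 deposited peak lists. Per the file headers, peaks were called with MACS version 2.1.1.20160309 on pooled 50 bp tags at a q cutoff of 0.05, with at most 1 tag per position and 100 bp fragments. DNase tags were shifted by 50 bp and had no control, with a 10 kb background window, and TCF1 was called against a pooled file named IgG, which includes a library number whose labels conflict. Positions are on mm9, which the submitters' processing notes name, and the aligner is not given in the sources used here. The authors' lists give the pileup signal (height), the ratio called fold enrichment, and −log10 of the q-value as deposited. Pooling removes the spread between libraries.

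Local background was computed as height plus 1, divided by fold, minus 1. Region height and fold are those of its most enriched peak in a list. Peaks on chromosomes Y and M were left out. Distances run between region edges. Wilson intervals came from statsmodels 0.14.6 under python 3.11.15. The merging was tested on lists simulated from 70040 EILP peaks, where 2754 of 2754 placed regions of the pattern were recovered. The simulated lists held copies of the same peaks moved by at most 10 bp, so recovery was nearly fixed in advance. It checks the code and not the calls. Named regions were the 10 with the highest lower fold, the 5 with the highest TCF1 fold, the widest, 2 on each side of the rule and the extreme 1 Mb windows, with ties named. The regions and rules were chosen with earlier results of these data known. No significance test was run. The closing section gives the alternatives.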

Additional observations from a re-analysis of the deposited data

Results flagged for a closer look

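Outside the chromosomes used, 71 merged regions lay on chromosomes Y and M. Of these, 10 had ALP and ILCP peaks and no EILP peak, all among the 63 regions on chromosome Y, and 0 of the 8 mitochondrial regions did. On the chromosomes used, 4180 of 102313 regions (4.09%) had the pattern, and the difference was not tested. They are noted because they lie in data that no comparison above used.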

How the results depend on the processing

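No paired analysis was possible because each peak list pools the libraries of its group, and no replicate could be left out. The planned promoter and motif shares needed genes and sequence of mm9 and were not run. The summit rule of 50 bp, the addition of chromosomes Y and M and the TCF1 share away from EILP peaks were chosen after seeing the data. The number of regions stayed within 1.5 times of 4180 under every alternative tried except 1: with ALP and ILCP peaks in the upper part of their lists by fold, split at the median, and the EILP list whole, it was 313, and the share without an EILP peak 1.40%. That share was 11.2% with summits within 150 bp in place of overlap, 9.20% with no EILP peak within 100 bp, 8.08% within 500 bp and 7.41% within 1000 bp. It was 8.31% with ALP and ILCP peaks at a q of at most 0.001, 9.88% with lists of equal length and 9.20% with ALP and ILCP summits within 50 bp. With another stage as the missing one it was 19.7% (ILCP) and 19.2% (ALP). The TCF1 share was 3.25% with TCF1 peaks within 500 bp and 1.04% in regions with no EILP peak within 1000 bp. By region width it was 0.602% up to 150 bp, 1.08% at 151 to 200, 1.90% at 201 to 300 and 2.17% above 300 bp. The share near an EILP peak was 14.9% within 500 bp and 49.4% within 5000 bp. The causes of these shifts were not tested, apart from the wider or narrower distance that each setting itself defines. The TCF1 list is shallow, so a missing TCF1 peak sets no limit on binding.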

Other observations

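The neighbours of the 4180 regions along the chromosomes had much the same patterns as those of all regions. Of the 8356 nearest regions on either side, 39.1% were open in all 3 stages, 16.9% in ILCP only, 11.8% in ALP only and 4.14% had the same pattern of ALP and ILCP without EILP. Over all regions these neighbour shares were 38.9%, 17.2%, 11.3% and 4.08%. ALP-only regions had 13.3% of their neighbours of their own pattern and ILCP-only regions 20.1%.

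Few of the regions sat beside each other, at nearly the share over all regions (4.14% of neighbours against 4.08%). With no other DHS between them, 159 pairs and 7 runs of 3 were found, and 3841 regions stood alone. The longest stretches by number include chr7:86860585-86872246 and chr6:145023671-145037247, each with 3 in a row. Among regions open in ALP and ILCP that had another such region without EILP within 50 kb, 8.68% (8.21 to 9.18) lacked an EILP peak, and among those that had none 9.84% (9.51 to 10.2) did. These sets were matched neither for height nor for the number of DHS nearby, and the source of the difference was not tested.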
